A study of Homo sapiens with 12 samples.

Results

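The major histocompatibility complex (MHC) class I genes were examined in KKU-213A cells, an established human line derived from cholangiocarcinoma, a bile duct cancer. The 9 genes were defined by name and function, in a list drawn up with earlier results of these data known: the heavy chains HLA-B, HLA-C, HLA-E and HLA-F, the light chain B2M, the peptide loading genes TAP1, TAP2 and TAPBP, and the class I transactivator NLRC5. Of these 9, 8 appeared in at least 1 of the 3 deposited tables, which together held 5308 genes. HLA-C was in none of them, so it has no expression value here and enters with its promoter only. The study sequenced poly(A) RNA of 4 groups with 3 libraries each, 12 in all, from this 1 line, whose HLA alleles are not given in the sources used here. Control cells were kept in low-glucose DMEM. Lactic acidosis cells were kept in L-lactate at 25 mM with HEPES at 25 mM, at pH 6.7. Lactosis cells received lactate at 25 mM at pH 7.4, and acidosis cells HEPES at 25 mM at pH 6.5. Each treatment lasted at least 5 passages. The passages and the medium pH of control are not given in the sample labels, so time in culture cannot be told apart from treatment. HEPES is given for the media of the lactic acidosis and acidosis groups only, so low pH and this buffer cannot be told apart, and the pH of those media was not the same. The labels do not say whether the 3 libraries of a group were separate cultures, and p-values therefore reflect library spread, which could be technical.

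MHC class I molecules show short peptides from inside the cell to CD8 T cells. Peptides cut by the proteasome are pumped into the endoplasmic reticulum by the transporter that TAP1 and TAP2 form together, and tapasin, the product of TAPBP, holds an empty heavy chain beside that transporter until a peptide is bound. Heavy chains generally need the light chain beta-2 microglobulin, the product of B2M, to reach the surface. There classical molecules such as HLA-B also inhibit natural killer (NK) cells, and HLA-E serves as a ligand of the NK receptor CD94/NKG2A. NLRC5 is a transactivator that acts at class I promoters together with DNA-bound factors of the RFX, CREB and NF-Y families, and interferons raise the whole set through IRF and STAT factors.

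Each of the 3 tables set 1 treated group against the same 3 control libraries and listed only genes that the authors called different, so a gene that is not listed has no value for that treatment and cannot be called unchanged. Values are expression values scaled by gene length and per library, in arbitrary units, and read depth is unknown. The weights that carried these values to the authors' group means in the lactic acidosis table were 1.000, 0.799 and 0.774 in control libraries 1 to 3 and 0.762 to 0.809 in lactic acidosis, so control library 1 stood apart on this scale. Rescaling all libraries by these weights moved the median of all genes of the lactic acidosis table by -0.11, of the lactosis table by -0.03 and of the acidosis table by -0.01 (log2). Of 11 biliary epithelial markers, 5 were in the lactic acidosis table, among them KRT19 at 2799, 4155 and 4419 in control and 3067, 2596 and 3013 in lactic acidosis, 3 in the lactosis table and 0 in the acidosis table. Of 10 markers of blood and antigen-presenting cells 1 was listed, the lysosomal gene CD68 which went from 30.3 ± 2.69 in control to 46.1 ± 3.59 in lactic acidosis (SD, n = 3 each). Of 6 fibroblast markers 0 were listed. The part of CD68 and of the biliary markers in the results was not tested.

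Class I genes share short promoter elements, and the 300 bases around their starts, 250 before and 50 after, show how the genes that moved down with HLA-B and the 1 that moved up, TAP2, are built. Of the 9 genes, 7 had a promoter in the RefSeq table used (GRCh38.p14), and HLA-E and NLRC5 did not. TAP1 had 2 starts in it, and the first is printed. The capitals mark letters that match 1 of 4 searched motifs on either strand, which may overlap: the IRF core AANNGAAA, the CRE core TGACG, the CCAAT box CCAAT, and the kappa-B consensus. The sequences run 5′ to 3′ on the strand of the gene, from chr6:31357130-31357429 (minus) for HLA-B, chr6:29723184-29723483 (plus) for HLA-F, chr15:44711267-44711566 (plus) for B2M, chr6:32853655-32853954 (minus) for TAP1 and chr6:32838690-32838989 (minus) for TAP2.
HLA-B: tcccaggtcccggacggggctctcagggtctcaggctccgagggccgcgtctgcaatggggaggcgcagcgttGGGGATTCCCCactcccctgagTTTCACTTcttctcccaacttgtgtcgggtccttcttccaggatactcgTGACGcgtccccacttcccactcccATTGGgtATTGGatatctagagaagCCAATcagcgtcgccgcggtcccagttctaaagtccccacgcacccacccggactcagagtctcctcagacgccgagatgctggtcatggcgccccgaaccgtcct
HLA-F: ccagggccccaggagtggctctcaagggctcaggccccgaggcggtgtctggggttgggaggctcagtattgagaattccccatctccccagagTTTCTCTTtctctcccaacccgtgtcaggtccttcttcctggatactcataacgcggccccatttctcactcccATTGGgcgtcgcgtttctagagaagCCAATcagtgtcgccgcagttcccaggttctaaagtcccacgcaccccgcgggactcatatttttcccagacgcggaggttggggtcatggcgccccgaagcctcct
B2M: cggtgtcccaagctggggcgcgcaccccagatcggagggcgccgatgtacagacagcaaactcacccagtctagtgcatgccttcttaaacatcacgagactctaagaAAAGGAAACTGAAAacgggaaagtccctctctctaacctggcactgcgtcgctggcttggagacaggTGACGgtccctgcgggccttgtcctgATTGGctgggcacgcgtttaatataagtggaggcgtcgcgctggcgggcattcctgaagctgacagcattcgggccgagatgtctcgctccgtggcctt
TAP1: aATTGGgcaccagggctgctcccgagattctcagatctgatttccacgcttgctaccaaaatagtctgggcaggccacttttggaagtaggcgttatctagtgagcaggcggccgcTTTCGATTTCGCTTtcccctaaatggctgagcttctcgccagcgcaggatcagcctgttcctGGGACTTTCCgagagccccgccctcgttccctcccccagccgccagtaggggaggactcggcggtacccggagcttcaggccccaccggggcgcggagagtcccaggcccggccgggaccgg
TAP2: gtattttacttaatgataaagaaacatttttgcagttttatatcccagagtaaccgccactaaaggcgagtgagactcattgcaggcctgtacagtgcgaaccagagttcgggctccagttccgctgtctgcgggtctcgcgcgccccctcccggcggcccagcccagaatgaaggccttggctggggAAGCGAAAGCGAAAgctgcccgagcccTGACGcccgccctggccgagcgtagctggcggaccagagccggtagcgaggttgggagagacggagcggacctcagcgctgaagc

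An IRF core match was present at a listed start of 7 of 7 genes, or in 7 of their 8 promoters, against 22.8% of all 35116 promoters of this length. The promoter of the other TAP1 start (chr6:32852712-32853011, minus) held 0 matches to any of the 4 motifs, so the counts below are of genes. It began at -155 from the start in HLA-B, -151 in HLA-C and -156 in HLA-F, at -142 and -136 in B2M, at -134 and -128 in TAP1, at -62 and -56 in TAP2, and at -18 and -12 in TAPBP. The heavy chain genes thus held the match in nearly the same place, while it lay closest to the start in TAP2 and TAPBP. The CRE core was found in 4 of 7 (24.6% of all promoters), in HLA-B, HLA-C, B2M and TAP2. A CCAAT box was found in 5 of 7 (34.6%), all but TAP2 and TAPBP, and the kappa-B consensus in 4 of 7 (8.40%), namely HLA-B, HLA-C, TAP1 and TAPBP. TAP2 therefore had the IRF core and the CRE core but neither of the other motifs in this window. A match describes letters only and is not a bound site. TAP1 stands head to head with PSMB9, a proteasome subunit gene, and their windows overlap only at their ends, from 32853942 to 32853954. The PSMB9 window (chr6:32853942-32854241, plus) held 0 matches to the IRF core and 0 to the kappa-B consensus, with 1 CRE core and 1 CCAAT box.

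**Figure D1:**
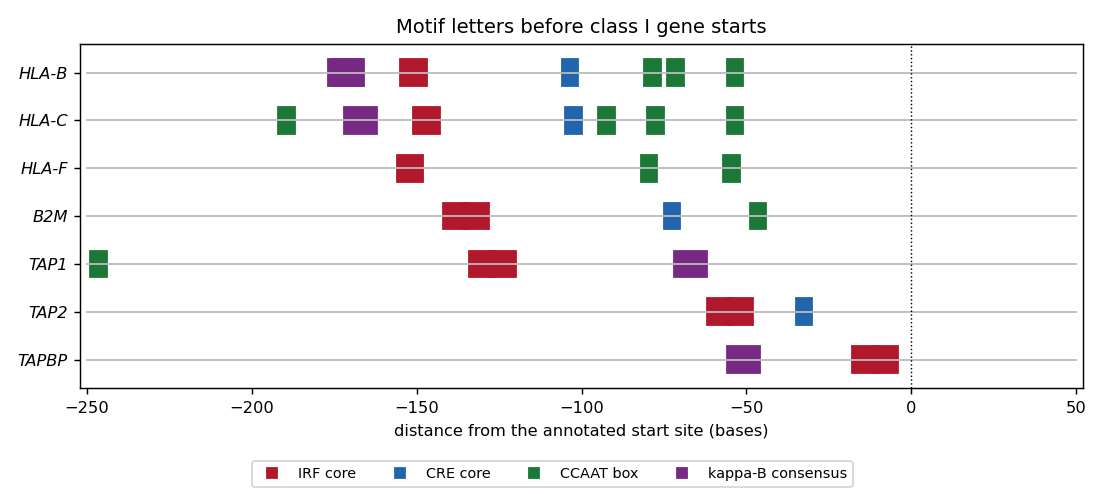
Position of motif matches in the promoters of 7 class I genes, for TAP1 at its first listed start. The horizontal axis is the distance from the annotated start in bases, and each coloured box spans 1 match on either strand. The IRF core begins at -155 in HLA-B, -151 in HLA-C and -156 in HLA-F, and at -62 and -56 in TAP2.

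In lactic acidosis, transcripts of the class I heavy chains, their light chain, TAP1 and the transactivator NLRC5 were lower than in control, while TAP2 was higher. The authors' table listed 8 of the 9 genes, 7 lower and 1 higher, where 41.1% of its 4279 genes were lower and 58.9% higher. By the authors' fold changes 3 of the 8, HLA-B, HLA-F and NLRC5, differed at least 2-fold, as did 26.2% of the table. By limma, an empirical Bayes linear model, run on log2(value + 1) with Benjamini-Hochberg adjustment over all genes of the table, 7 of the 8 passed an adjusted p of 0.05, 6 lower and 1 higher, and TAPBP did not. Of all listed genes 86.1% passed, 30.8% lower and 55.3% higher. Most of the table passes because it was selected on the same libraries, so the count of members that passed does not set them apart. The median difference over the 8 listed members was -0.54, against 0.45 over all genes of the table (log2).

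Among the heavy chains, HLA-B, a classical peptide-presenting chain, stood at 672.8, 569.5 and 541.8 in control and at 324.3, 307.1 and 319.6 in lactic acidosis. All lactic acidosis libraries lay far under the lowest control, and the means were 595 ± 69.1 and 317 ± 8.88 (SD, n = 3 each). HLA-B fell by 0.90 on the log2(value + 1) scale (SE 0.135, limma adjusted p = 7.38e-04). In the authors' own model its probability of equal expression was 0.0411, the highest of the 8 members in lactic acidosis. HLA-E, a non-classical chain that mainly binds signal peptides of other class I chains, stood at 205.8, 206.3 and 199.8 in control and at 150.1, 150.5 and 147.8 in lactic acidosis. Here both groups were tight and apart, at 204 ± 3.63 and 149 ± 1.42 (SD, n = 3 each), and HLA-E fell by 0.45 (SE 0.119, limma adjusted p = 0.00911). HLA-F, a non-classical chain that can be displayed without peptide, stood at 35.9, 28.5 and 25.8 in control and at 9.41, 9.66 and 9.63 in lactic acidosis. It showed the largest fitted fall of the 8 members in lactic acidosis, by 1.54 (SE 0.150, limma adjusted p = 1.15e-04). The authors' own log2 fold change for HLA-F, in the authors' deposited table, was -1.79. Of the 75-base windows of the longest HLA-F coding transcript, 36.1% also occur in a transcript of another gene, such as the antisense gene HLA-F-AS1 with 12.1%, so how its reads were assigned is uncertain. The share was 15.4% in HLA-B and 2.02% in HLA-E.

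B2M, the light chain of class I molecules, was the most abundant member, at 2368, 2188 and 2243 in control and 1468, 1556 and 1351 in lactic acidosis. Its lowest control lay above its highest lactic acidosis library, and it fell by 0.64 (SE 0.127, limma adjusted p = 0.00272). None of its 1631 windows was shared with another gene (0). Since these are bulk cultures, fewer cells that express a gene and less RNA per cell cannot be told apart here.

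The 2 subunits of the peptide transporter went in opposite directions in lactic acidosis. TAP1 stood at 59.4, 58.0 and 58.7 in control and 45.2, 41.7 and 42.1 in lactic acidosis, and fell by 0.44 (SE 0.121, limma adjusted p = 0.0102). TAP2 stood at 79.1, 92.5 and 92.2 in control and at 122.5, 121.2 and 131.8 in lactic acidosis. Every lactic acidosis library was higher than every control, and TAP2 rose by 0.51 (SE 0.131, limma adjusted p = 0.00798). The deposited tables hold 1 value per gene, and 35.5% of TAP2 windows, against 13.6% of TAP1 windows, occur in transcripts of another annotated gene, so the TAP2 reads are uncertain. TAPBP, the tapasin gene that bridges TAP and heavy chain, stood at 78.5, 109.1 and 113.8 in control and 85.1, 90.9 and 90.3 in lactic acidosis. The groups overlapped because control library 1 lay lowest of all 6, and the difference of -0.16 did not pass (95% interval -0.53 to 0.21, limma adjusted p = 0.363). Without that library it was -0.33 (adjusted p = 0.00749), and with rescaled values -0.27 (adjusted p = 0.0195).

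NLRC5, the transactivator of the class I genes, stood at 12.6, 18.1 and 18.6 in control and at 7.41, 8.47 and 8.11 in lactic acidosis. All 3 treated libraries lay under the lowest control, and NLRC5 fell by 0.94 (SE 0.167, limma adjusted p = 0.00164). None of its 6748 windows was shared with another gene (0). NLRC5 lies on chromosome 16 (56989485 to 57083531) and B2M on chromosome 15 (44711487 to 44718877), away from the other members, which lie within the MHC on chromosome 6: HLA-F at 29722775 to 29738528, HLA-E at 30489467 to 30494205, HLA-B at 31269491 to 31357188, TAP2 at 32821833 to 32838780, TAP1 at 32845209 to 32853978 and TAPBP at 33299694 to 33314387 (GRCh38, GENCODE gene models). The HLA-B gene model of this annotation runs over that of HLA-C. Of the 8 members with values, 7 did not overlap with control in lactic acidosis, 6 lower and 1 higher, where 90.2% of the table's genes did not overlap, 32.0% lower and 58.2% higher.

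**Figure D2:**
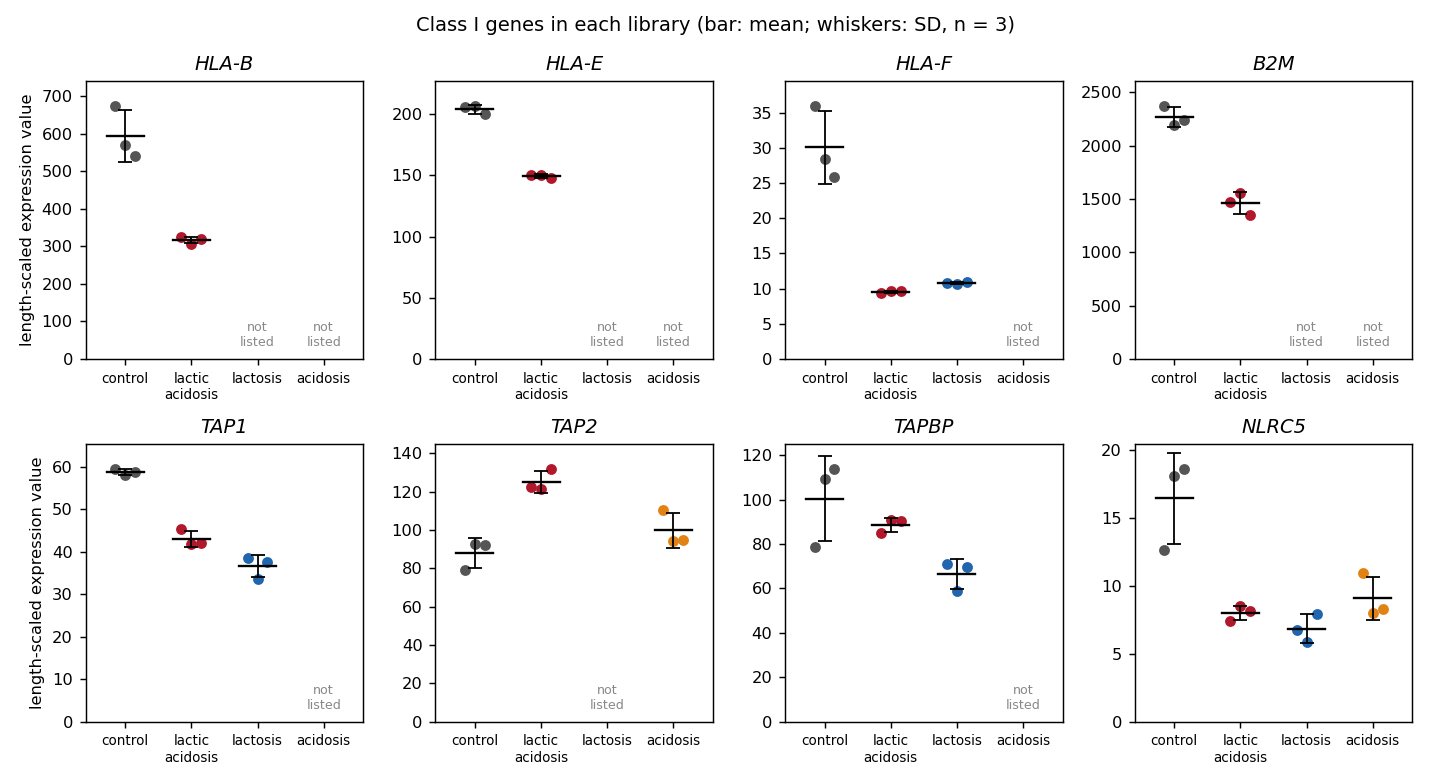
Length-scaled expression value (vertical axis, arbitrary units, from 0) of 8 class I genes in each library of control (grey), lactic acidosis (red), lactosis (blue) and acidosis (orange). Points are libraries, bars the mean and whiskers the SD of 3, and a group marked as not listed has no value in the deposited tables. TAP2 is the 1 gene whose lactic acidosis libraries lie above control, and TAPBP the 1 whose lactic acidosis libraries overlap control.

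Control library 1 was not low for every member. On the deposited scale it stood at 119% of the control mean for HLA-F, 113% for HLA-B and 104% for B2M, but at 76.7% for NLRC5, 78.1% for TAPBP and 89.9% for TAP2. After rescaling by the fitted weights these became 137%, 130%, 121%, 91.2%, 92.8% and 106%. The spread of the 3 controls (coefficient of variation) then widened for HLA-B from 11.6% to 26.6% and for TAP1 from 1.19% to 15.5%, and narrowed for NLRC5 from 20.2% to 7.61% and for TAPBP from 19.1% to 6.25%. No single scale thus made the control libraries tight for all members. The direction of every member against control was the same on both scales.

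Ratios of 2 genes within a library do not depend on its scale, and they showed that the members changed unequally. These ratios were chosen after the values had been seen and carry no test. How many other gene pairs separate control from lactic acidosis was not counted, while 90.2% of single genes in that table did not overlap. TAP2 over TAP1 was 1.50 ± 0.146 in control and 2.92 ± 0.212 in lactic acidosis (SD, n = 3 each), with ranges of 1.33 to 1.59 and 2.71 to 3.13. HLA-B was 26.2% ± 2.14 of B2M in control and 21.8% ± 1.98 in lactic acidosis (SD, n = 3 each), with ranges of 24.2 to 28.4 and 19.7 to 23.7. HLA-F was 1.32% ± 0.184 of B2M in control and 0.658% ± 0.0485 in lactic acidosis. HLA-E went the other way, from 9.01% ± 0.379 of B2M to 10.3% ± 0.641, with ranges of 8.69 to 9.43 and 9.67 to 10.9. Relative to the light chain, HLA-B and HLA-F were thus lower in every lactic acidosis library than in any control, and HLA-E was higher, though its own level had fallen. TAPBP over TAP1 overlapped between groups, at 1.71 ± 0.341 in control, 2.07 ± 0.162 in lactic acidosis and 1.82 ± 0.0530 in lactosis.

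**Figure D3:**
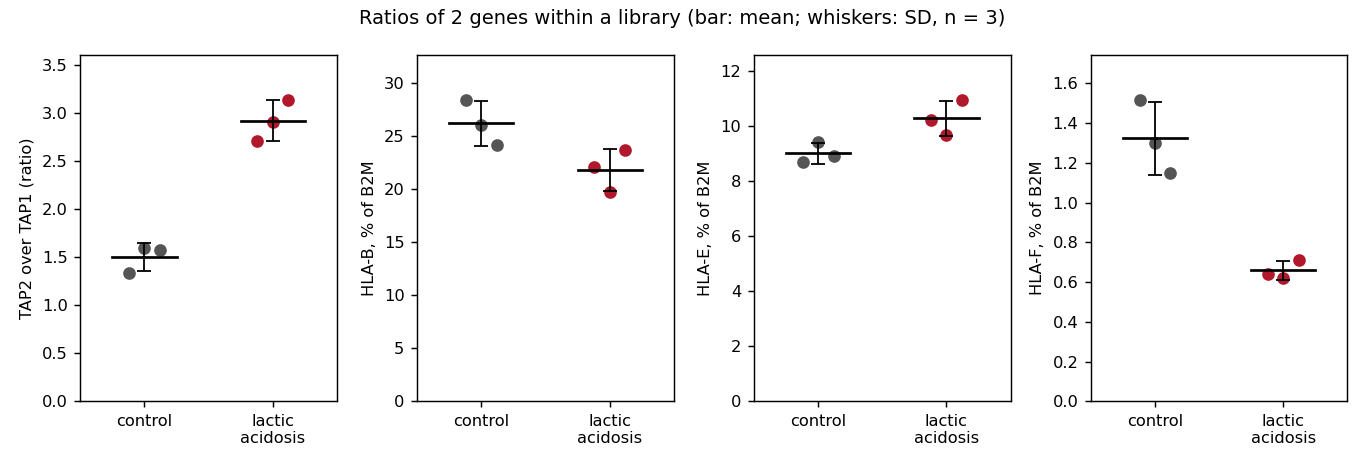
Ratio of 2 genes within each library of control (grey) and lactic acidosis (red): TAP2 over TAP1, and HLA-B, HLA-E and HLA-F as a percent of B2M. Points are libraries, bars means and whiskers the SD of 3. TAP2 over TAP1 lies at 1.33 to 1.59 in control and 2.71 to 3.13 in lactic acidosis. In no panel do the groups overlap, but the ratios were picked after the values had been seen. The gap is narrow for HLA-B (lowest control 24.2, highest lactic acidosis 23.7) and HLA-E (highest control 9.43, lowest lactic acidosis 9.67).

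In lactosis, with lactate at pH 7.4, 4 of the 9 genes were listed, HLA-F, TAP1, TAPBP and NLRC5, all lower than control, where 40.7% of 3087 listed genes were lower. All 4 passed the limma test and did not overlap with control. Of all genes in the table, 77.7% passed in either direction and 31.2% as lower, and 84.0% did not overlap, 31.9% as lower. By the authors' fold changes 2 of the 4, HLA-F and NLRC5, differed at least 2-fold, as did 20.9% of the table. The median difference of the 4 was -0.90, against 0.37 over the table (log2). HLA-F stood at 10.8, 10.6 and 10.9, all well under the lowest control of 25.8, and fell by 1.39 (SE 0.153, limma adjusted p = 2.80e-04). TAP1 stood at 38.5, 33.6 and 37.7, also under every control, and fell by 0.67 (SE 0.130, limma adjusted p = 0.00306). TAPBP stood at 70.9, 58.9 and 69.7, with its highest library under the lowest control of 78.5. It fell by 0.57 (SE 0.174, limma adjusted p = 0.0175), but leaving out control library 2 gave -0.51 (adjusted p = 0.0623) and leaving out lactosis library 2 gave -0.49 (adjusted p = 0.0619). NLRC5 stood at 6.77, 5.84 and 7.94, under every control, and fell by 1.14 (SE 0.182, limma adjusted p = 0.00139). HLA-F was 51.2% ± 8.41 of TAP1 in control, 29.6% ± 1.76 in lactosis and 22.3% ± 1.28 in lactic acidosis (SD, n = 3 each). HLA-B, HLA-E, B2M and TAP2 had no value in lactosis.

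In acidosis, with HEPES at pH 6.5, 2 of the 9 genes were listed, NLRC5 lower and TAP2 higher, where 38.9% of 1721 listed genes were lower and 61.1% higher. By the authors' fold changes 0 of the 2 differed at least 2-fold, against 12.5% of its genes. Neither overlapped with control, as was the case for 75.5% of the table, 25.3% lower and 50.2% higher. NLRC5 stood at 10.9, 7.97 and 8.29, against a lowest control of 12.6, and fell by 0.78 (SE 0.188, limma adjusted p = 0.00588). It was the 1 member that passed, where 60.0% of all genes in the table passed and 24.2% passed as lower. TAP2 stood at 110.3, 94.5 and 94.7, against a highest control of 92.5. The groups were close, and the difference of 0.18 did not pass (95% interval -0.16 to 0.53, limma adjusted p = 0.286). NLRC5 was 18.5% ± 2.28 of TAP2 in control, 9.03% ± 0.767 in acidosis and 6.40% ± 0.516 in lactic acidosis (SD, n = 3 each). None of the heavy chains, B2M, TAP1 or TAPBP had a value in acidosis.

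**Figure D4:**
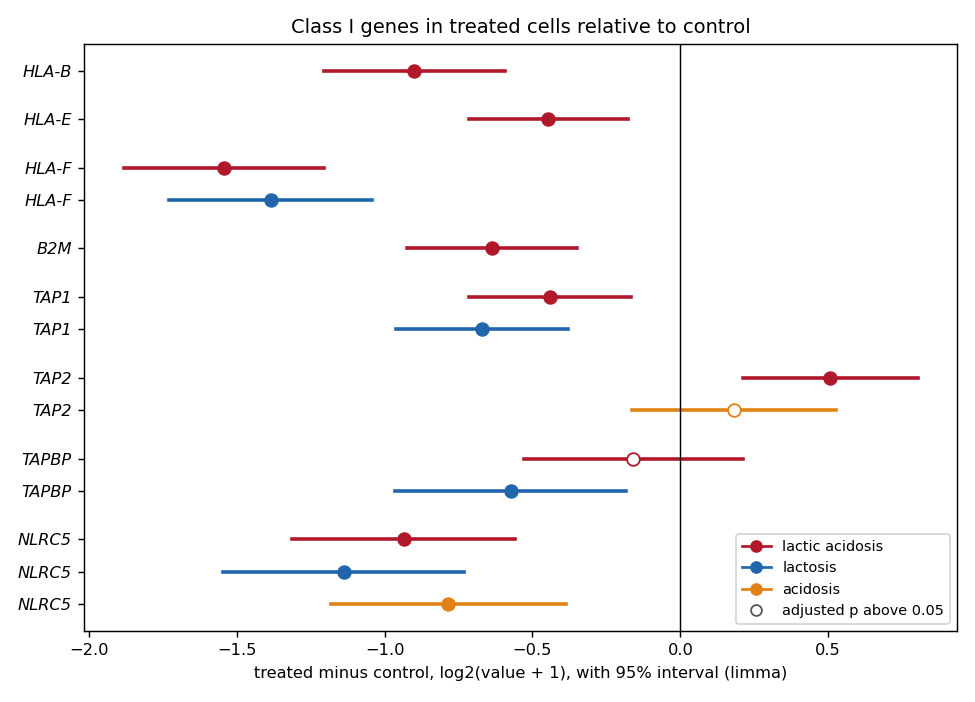
Difference of each treated group from control for the class I genes listed in that treatment's table, on the log2(value + 1) scale, with the 95% interval from limma. Filled points passed an adjusted p of 0.05. TAP2 in lactic acidosis is the 1 filled point to the right of 0, and the open points are TAPBP in lactic acidosis and TAP2 in acidosis.

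The treated groups were compared directly over genes listed in both of their tables. Lactic acidosis and lactosis could be compared for 4 members, of which 1 passed, higher in lactic acidosis, against 20.4% of 2344 genes in either direction and 15.7% as higher. TAPBP was higher in lactic acidosis than in lactosis by 0.42 (SE 0.0915, limma adjusted p = 0.0106), with no overlap between 85.1 to 90.9 and 58.9 to 70.9. TAP1 also stood higher in lactic acidosis, by 0.23 (95% interval 0.04 to 0.42), but did not pass (limma adjusted p = 0.0820). HLA-F differed by -0.16 (interval -0.32 to 0.01, limma adjusted p = 0.151) and NLRC5 by 0.20 (interval -0.03 to 0.44, limma adjusted p = 0.187), so neither was shown to differ. On rescaled values the HLA-F difference was -0.21 and passed (adjusted p = 0.0401). Lactic acidosis and acidosis could be compared for 2 members, of which 1 passed, higher in lactic acidosis, against 48.8% of 1304 genes in either direction and 38.7% as higher. TAP2 was higher in lactic acidosis than in acidosis by 0.33 (SE 0.0852, limma adjusted p = 0.0109), with no overlap between 121.2 to 131.8 and 94.5 to 110.3. Leaving out acidosis library 2 ended that call, at 0.29 (adjusted p = 0.0559). Rescaling moved the share of passing genes that were higher in lactic acidosis from 76.6% to 65.9% against lactosis and from 79.4% to 67.2% against acidosis.

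NLRC5 was the only member with a value in all 4 groups. Its level was 16.4 ± 3.32 in control, 9.06 ± 1.61 in acidosis, 7.997 ± 0.539 in lactic acidosis and 6.85 ± 1.05 in lactosis (SD, n = 3 each). All treated libraries, 5.84 to 10.9, lay under all control libraries, 12.6 to 18.6. The treated neighbours in this order did not differ beyond their spread by limma. Acidosis and lactic acidosis differed by 0.15 (adjusted p = 0.293). Lactosis stood under acidosis by 0.35 (95% interval of lactosis minus acidosis -0.67 to -0.04), with an unadjusted p of 0.0308 and a limma adjusted p of 0.0995. In that comparison 0 members passed after adjustment and 1 before it, while 23.9% of 1173 genes passed. The effect of lactate on NLRC5 was -1.14 without the acid medium (lactosis minus control) and -0.15 within it (lactic acidosis minus acidosis). The difference of 0.99 between them passed a limma test added after the values were seen (adjusted p = 0.00473), as did 35.9% of 1042 genes, and 54.9% of the 364 genes that were lower than control in all 3 treatments passed with a difference above 0. Listing genes because they were lower than the same control libraries favours this sign, since control enters the difference with a plus sign. In lactosis against acidosis, NLRC5 passed on rescaled values at -0.37 (adjusted p = 0.0107), as it did in lactic acidosis against acidosis, at -0.23 (adjusted p = 0.0320).

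The 5 genes nearest to NLRC5 in pattern were sought among 1024 genes listed in all 3 tables with a mean value of at least 1. Likeness was the root mean square difference, over the 12 libraries, of log2(value + 1) after subtracting the control mean. Nearest was ST6GALNAC2, a sialyltransferase gene, at 0.132, with levels of 60.7 ± 9.46 in control, 37.5 ± 4.34 in acidosis, 29.1 ± 3.67 in lactic acidosis and 29.2 ± 1.31 in lactosis (SD, n = 3 each). It was followed by NR1D2, a nuclear receptor of the circadian clock, at 0.136, and by PDP1, a phosphatase that activates pyruvate dehydrogenase, at 0.150. KLF3, a zinc finger repressor, was at 0.153, and BLNK, an adaptor of B cell receptor signalling, at 0.161. With a pseudocount of 0.1, 3 of these 5 were again among the nearest 5.

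Partners of the pathway, a list of 22 genes for other class I chains, chaperones, trimming enzymes and proteasome subunits, were lower wherever they were listed. In lactic acidosis 5 were listed, all lower, and 4 passed the limma test, where 86.1% of the table passed and 30.8% as lower. In lactosis 6 were listed, and all 6 passed as lower, where 77.7% of the table passed and 31.2% as lower. Leaving out a library gave 2 to 5 passing in lactic acidosis, with 2 without control library 2 and without lactic acidosis libraries 1 and 2, and 5 to 6 in lactosis. In acidosis 0 were listed. PSMB9, a subunit of the immunoproteasome, stood at 133.9, 115.6 and 114.4 in control and 63.5, 56.2 and 55.2 in lactosis, and fell by 1.04 (SE 0.139, limma adjusted p = 6.94e-04). It was listed in lactosis alone, like MR1, which presents vitamin B metabolites and went from 4.56 ± 0.684 to 2.64 ± 0.284 (SD, n = 3 each). CANX, the chaperone calnexin that folds new heavy chains, was 474 ± 31.3 in control, 329.6 ± 14.6 in lactic acidosis and 280.2 ± 43.4 in lactosis (SD, n = 3 each). It fell in both, by 0.52 and by 0.77 (limma adjusted p = 0.00624 and 0.00380). HLA-G, a non-classical chain at low level, was 7.80 ± 0.725 in control, 5.51 ± 1.01 in lactic acidosis and 4.51 ± 1.32 in lactosis, and fell by 0.44 and 0.70 (limma adjusted p = 0.0233 and 0.00993), and 23.5% of its windows occur in other genes. TAPBPL, a peptide editor related to tapasin, fell by 0.46 in lactic acidosis (limma adjusted p = 0.0108). ERAP2, which trims peptides in the endoplasmic reticulum, fell by 0.42 and by 0.60 (limma adjusted p = 0.0484 and 0.0147). In lactic acidosis leaving out a library ended the ERAP2 call in 5 of 6 cases, all but control library 1, and the 6 fits gave differences of -0.59 to -0.27 and adjusted p up to 0.155. It ended the HLA-G call there in 3 of 6, without control library 2 and without lactic acidosis libraries 1 and 2, with adjusted p up to 0.0932. ERAP1, another trimming enzyme, fell by 0.54 in lactosis (limma adjusted p = 0.0159), a call that ended in 3 of 6 cases, without control library 2 and without lactosis libraries 1 and 2 (adjusted p up to 0.0605). The median of listed partners was -0.44 in lactic acidosis and -0.65 in lactosis, against 0.45 and 0.37 over all genes.

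Regulators of the class I genes, a list of 25, moved both ways. In lactic acidosis 12 were listed and 9 passed, 4 higher and 5 lower, where 55.3% of the table passed as higher and 30.8% as lower. In lactosis 10 were listed and 8 passed, 3 higher and 5 lower, where 46.5% of the table passed as higher and 31.2% as lower. In acidosis 3 were listed, and 1 passed, IFNGR2, a chain of the interferon gamma receptor, which was higher by 0.48 (limma adjusted p = 0.0496), where 35.9% of the table passed as higher. IRF1, an interferon-responsive activator of class I promoters, stood at 71.3, 82.3 and 66.0 in control, at 51.2, 50.8 and 49.0 in lactic acidosis and at 34.7, 32.6 and 33.9 in lactosis. The 3 groups did not overlap. IRF1 fell by 0.53 in lactic acidosis (SE 0.134, limma adjusted p = 0.00755) and by 1.09 in lactosis (SE 0.139, limma adjusted p = 5.72e-04), and lactic acidosis stood above lactosis by 0.56 (limma adjusted p = 6.63e-04). RFXAP, a subunit of the RFX complex, was 8.34 ± 1.24 in control, 3.67 ± 0.327 in lactic acidosis and 4.85 ± 0.260 in lactosis (SD, n = 3 each), so here lactic acidosis was the lower, by 0.33 (limma adjusted p = 0.0217). STAT2, which carries type I interferon signals with IRF9, was 26.0 ± 1.38, 13.9 ± 1.11 and 13.9 ± 2.72 in the same groups (SD, n = 3 each), and fell in both treatments (limma adjusted p = 7.08e-04 and 0.00275). IRF2, a relative of IRF1, fell by 0.71 in lactic acidosis (limma adjusted p = 0.00516). SOCS3, an inhibitor of cytokine signalling, rose by 1.02 in lactic acidosis and 0.58 in lactosis (limma adjusted p = 0.00332 and 0.0376). TRAF3, an adaptor that restrains the non-canonical NF-kappa-B pathway, rose by 0.89 and 0.54 (limma adjusted p = 0.00448 and 0.0423). The lactosis call ended in 4 of 6 cases for SOCS3, all but those without control libraries 1 and 3, and in 5 of 6 for TRAF3, all but that without control library 3 (adjusted p up to 0.114 and 0.137). The IFNGR2 call in acidosis ended in 5 of 6, all but that without control library 3 (0.23 to 0.64 over the 6 fits, adjusted p up to 0.130). IFNGR2 also rose by 0.82 in lactic acidosis (limma adjusted p = 0.00770), a call that ended in 0 of 6 cases. The lactosis count of 8 rested on single libraries: it was 3, all lower, without control library 2 or any 1 lactosis library, 7 without control library 1 (1 higher, 6 lower) and 7 without control library 3 (4 higher, 3 lower). RFX5, NFYB and NFYC each lost their lactosis call in 5 of 6 cases. In lactic acidosis the count was 8 without any 1 lactic acidosis library, where NFKB1 lost its call, and 11 without control library 1 (4 higher, 7 lower). The median of listed regulators was -0.31, -0.36 and 0.28, in the order lactic acidosis, lactosis and acidosis, against 0.45, 0.37 and 0.32 over all genes.

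Genes for surface proteins other than class I, a list of 19 that are mostly ligands of T and NK cell receptors, moved both ways. The list also holds the complement inhibitor CD59, which is counted below among the genes higher in lactic acidosis and in lactosis. In lactic acidosis 6 were listed and 6 passed, 5 higher and 1 lower, where 86.1% of the table passed and 55.3% as higher. In lactosis 8 were listed and 5 passed, 3 higher and 2 lower, where 77.7% of the table passed and 46.5% as higher. In acidosis 4 were listed and 3 passed, 2 higher and 1 lower, where 60.0% of the table passed and 35.9% as higher. CD274, the gene of the T cell inhibitor PD-L1, stood at 2.51 ± 0.518 in control, 12.3 ± 0.989 in lactic acidosis and 7.71 ± 1.40 in lactosis (SD, n = 3 each). It rose by 1.93 (SE 0.152, limma adjusted p = 4.76e-05) and 1.31 (SE 0.173, limma adjusted p = 6.76e-04), and lactic acidosis exceeded lactosis by 0.62 (limma adjusted p = 0.00460). PDCD1LG2, the gene of PD-L2, was 0.203 ± 0.123 in control and 1.83 ± 0.371 in lactic acidosis (SD, n = 3 each), a difference of 1.23 on a scale that understates changes at such low values (limma adjusted p = 3.01e-04). PVR, a ligand of the receptors DNAM-1 and TIGIT, rose by 0.99 in lactic acidosis and 0.41 in lactosis (limma adjusted p = 0.00140 and 0.0494), and the lactosis call ended in 5 of 6 cases when a library was left out, all but control library 2 (adjusted p up to 0.146). CD59, which blocks complement lysis, rose by 0.96 and 0.76 (limma adjusted p = 0.00343 and 0.0111). ULBP1, a ligand of the activating receptor NKG2D, was 4.31 ± 1.64 in control, 1.20 ± 0.284 in acidosis, 1.39 ± 0.111 in lactic acidosis and 1.07 ± 0.288 in lactosis (SD, n = 3 each). It fell in all 3 treatments, by 1.23 in acidosis, 1.10 in lactic acidosis and 1.32 in lactosis (limma adjusted p = 7.82e-04, 0.00236 and 0.00182). CD276, also called B7-H3, rose by 0.70 in lactic acidosis (limma adjusted p = 0.00657), while its differences of 0.40 in lactosis and 0.35 in acidosis did not pass (limma adjusted p = 0.0580 and 0.0939). The lactic acidosis count of 6 was the same when any 1 library was left out. The lactosis count was 3 without any 1 lactosis library, and without control library 1 it turned to 2 higher and 3 lower. ICAM1, an adhesion ligand that was lower in lactosis, lost its call in 5 of 6 cases. In acidosis the count was 1, ULBP1, without control library 2 or acidosis library 1 or 2, where MICB and RAET1E, the NKG2D ligands that were higher, both lost their calls. It was 2 without control library 1, 1 higher and 1 lower. The median of the listed genes of this list was 0.97, 0.41 and 0.46 in the same order of groups, against 0.45, 0.37 and 0.32 over all genes.

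**Figure D5:**
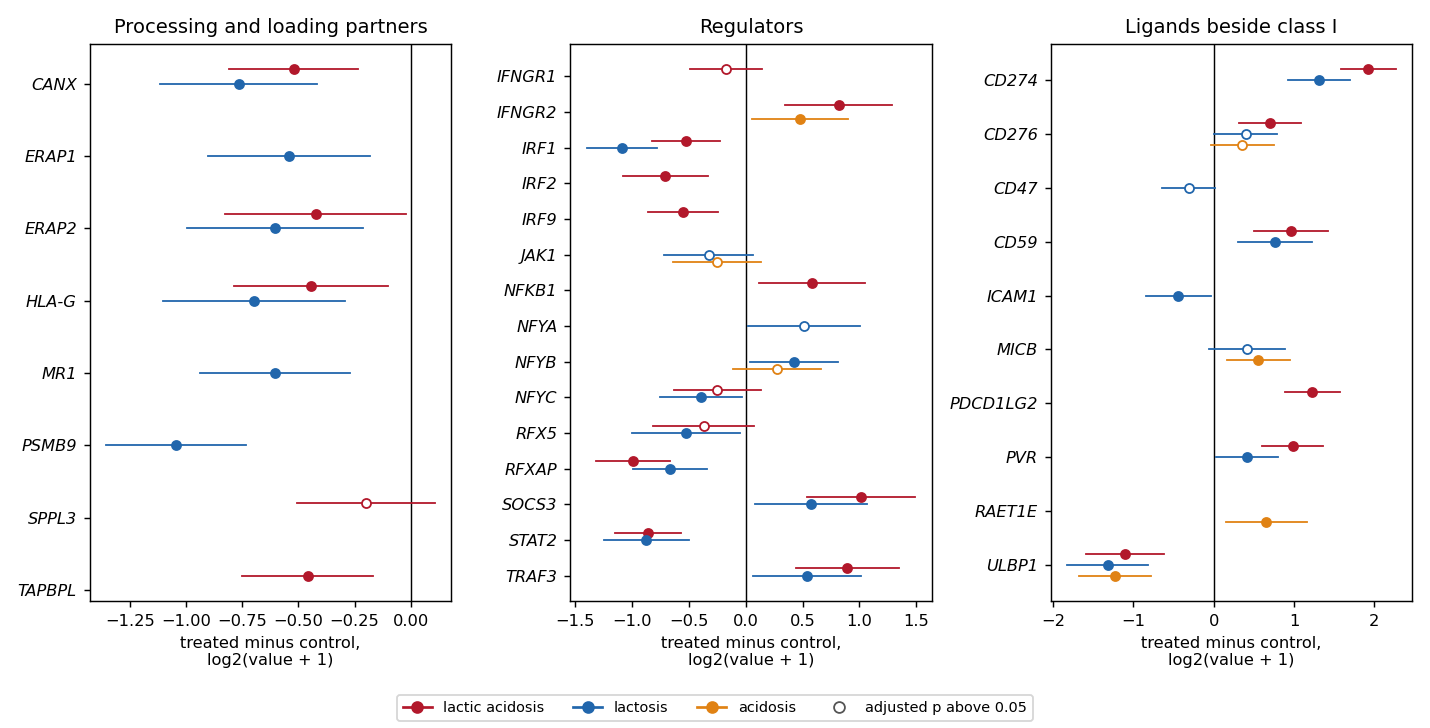
Difference from control on the log2(value + 1) scale, with the 95% interval from limma, for genes of 3 lists around the class I pathway in lactic acidosis (red), lactosis (blue) and acidosis (orange). Open points did not pass an adjusted p of 0.05. All partners lie to the left of 0, regulators lie on both sides, and CD274 in lactic acidosis is the farthest to the right at 1.93.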

How the data were processed

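KKU-213A RNA was measured in 12 libraries, 3 in each of 4 groups taken from the labels. STAR and hg38 are named in the submitters' processing notes, and the counting tool, its version and its handling of multi-mapped reads are not given in the sources used here. The deposited per-library values are a signal, scaled by the authors by gene length and per library, and could be TPM or FPKM. Group means, set within each table by the authors, are a signal too. The authors' fold changes, a ratio with control on top, were inverted before taking log2. The deposited probabilities of equal expression were under 0.05 for every listed gene. No column of per-library values was left unused (0).

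Control values were equal in all 3 tables (largest difference 0), so treated groups were compared across tables. limma 3.58.1 in R 4.3.3 was run on log2(value + 1) for the libraries of both groups of each comparison, with no filter, two-sided, and Benjamini-Hochberg adjustment over all genes of the table, or over the genes listed in both. The fit was also run on simulated data in which most genes did not change. Most genes of these tables passed, so that run does not show how the fit behaves here. Only genes called on these same libraries enter the test, so it describes their spread. Weights per library, fitted so that the values gave the authors' group means, served as another scale. Promoters are from RefSeq, gene models from GENCODE on GRCh38. Shared windows were counted on either strand in the longest protein-coding transcript. Tables and plots were made with pandas 2.3.3, numpy 2.4.6 and matplotlib 3.10.9 in Python 3.11.15.

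The members, gene lists and tests were chosen with earlier results of these data known. All members are described. From each other list up to 6 genes are named, by the smallest limma adjusted p against control, with IFNGR2, ERAP1, RFX5, NFYB, NFYC, NFKB1, ICAM1, MICB and RAET1E also named, picked with their values known. Cell type markers are named where a list is counted. Alternatives were other pseudocounts, a low-value filter, rescaling, the replicate number as a block, a stricter probability or fold, and leaving out each library.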

Additional observations from a re-analysis of the deposited data

Results flagged for a closer look

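The fitted difference with lactate in NLRC5 was farther from 0 without the acid medium than within it. Lactosis minus control was -1.14, while lactic acidosis minus acidosis was -0.15 (log2(value + 1)). The difference between these effects was 0.99 (SE 0.221, limma adjusted p = 0.00473 over the 1042 genes listed in all 3 tables and all 12 libraries). Leaving out each library in turn gave 0.89 to 1.16, with adjusted p from 2.89e-04 to 0.0172, and rescaled values gave 0.93 (adjusted p = 1.29e-04). Of the 1042 genes, 35.9% passed this test in either direction, and of the 364 genes lower than control in all 3 treated groups, 54.9% passed with a difference above 0, so NLRC5 is one of many. Only genes called against the same 3 control libraries in all 3 tables enter the test, and control enters the difference with a plus sign. For genes lower than control this selection favours a difference above 0, and its part in the NLRC5 value was not tested. The test was chosen after the data had been seen, and the acid media differed in pH, 6.7 with lactate and 6.5 without.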

How the results depend on the processing

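No difference of a member reversed its direction under any alternative that was run. With a minimum 2-fold change, members in the authors' deposited tables numbered 3 of 8 in lactic acidosis, 2 of 4 in lactosis and 0 of 2 in acidosis. With the authors' probability of equal expression under 0.01, 7 of 8 remained in lactic acidosis, 6 lower and 1 higher, as did 3711 of 4279 genes. The member lost was HLA-B, at 0.0411. All 4 remained in lactosis and both in acidosis, as did 2631 of 3087 and 1359 of 1721 genes. Rescaling gave 2 members passing in lactic acidosis against lactosis, 2 against acidosis and 1 in lactosis against acidosis, where the deposited scale gave 1, 1 and 0. A pseudocount of 5 gave 2 in the first of these, where TAP1 then passed (0.21, adjusted p = 0.0499). Rescaling with control library 1 left out, chosen after seeing the data, gave 2 in acidosis against control, where TAP2 then passed (0.21, adjusted p = 0.0486). Leaving out each library in turn gave 7 to 8 members passing in lactic acidosis, 3 to 4 in lactosis, 1 to 1 in acidosis, 1 to 2 in lactic acidosis against lactosis, 0 to 1 against acidosis and 0 to 0 in lactosis against acidosis. NLRC5 passed in lactic acidosis against lactosis without lactosis library 3 (0.30, adjusted p = 0.0394). Over all genes, calls in acidosis against control went from 1033 to 1679 rescaled, 1620 rescaled without control library 1, 1236 without control library 1, 526 without control library 2, and 543, 425 and 586 without acidosis libraries 1, 2 and 3. Their balance turned from 617 higher and 416 lower to 581 and 655 without control library 1 and to 194 and 349 without acidosis library 1, so the background shares in acidosis depend on these libraries. For lactic acidosis against control, the 3684 calls among 4279 genes became 2804, 2624 and 2789 without lactic acidosis libraries 1, 2 and 3. They became 4064, 3147 and 3599 without control libraries 1, 2 and 3, and 4174 rescaled, so the share of 86.1% moves too. Calls in lactosis against control went from 2398 to 1423 and 1515 without lactosis libraries 1 and 3, the latter with 756 higher and 759 lower against 1435 and 963. In lactic acidosis against lactosis the 479 calls became 259 to 318 in the 4 cases without a lactic acidosis library or lactosis library 1, and in lactosis against acidosis the 280 became 156 without lactosis library 1 and 131 without acidosis library 2. In the test of lactate by acid the 374 calls became 724 rescaled, 566 without control library 3 and 240 without acidosis library 3. Their balance turned from 208 above and 166 below 0 to 294 and 430 rescaled and to 214 and 352 without control library 3. Among the 9 members, a fit of all 12 libraries could be made for NLRC5 alone. Read depth is unknown and sets no limit that can be given.

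With a block for the replicate number, the members passing stayed at 7, 4, 1, 1, 1 and 0 in the 6 comparisons, and the calls over all genes in acidosis against control went from 1033 to 656. The numbers are not shown to pair libraries: the deviations of same-numbered libraries correlated at -0.39 to 0.22, and between 1 and 3 of 6 libraries correlated best with their own number.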
